A study of Mus musculus with 18 samples.

Results

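The cytosolic chaperonin CCT, also called TRiC, is a large double-ring machine in which each ring is built from 8 different but related subunits. Unfolded actin, tubulin and some proteins with a beta-propeller fold enter the central chamber, and rounds of ATP binding and hydrolysis close the chamber and let them fold. Each ring holds one copy of every subunit, so cells need the 8 proteins in equal amounts, and rapidly dividing cells such as stem cells contain much of the complex. In structural and biochemical work on the complex, the subunits on one side of the ring (TCP1, CCT2, CCT4 and CCT5) bind ATP strongly and those on the other side (CCT3, CCT6A, CCT7 and CCT8) bind it weakly. Here the mRNAs of these subunits were followed through polysome gradients of mouse embryonic stem cells (ESCs) with and without the RNA helicase DDX6, a translational repressor and mRNA decay factor.

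The 8 genes were named as a list (Tcp1, Cct2, Cct3, Cct4, Cct5, Cct6a, Cct7 and Cct8) and found by symbol among the 51467 genes of the count table. All 8 were among the 12705 genes tested. Wild-type (WT) V6.5 ESCs and Ddx6 knockout (KO) ESCs were grown in serum with LIF and 2i, the inhibitors PD0325901 and CHIR99021. Cycloheximide was added to both genotypes to hold ribosomes on their mRNAs, and each lysate was spun through a sucrose gradient from which 3 fractions were taken: monosome, low polysome with 2 to 4 ribosomes per mRNA, and high polysome with 4 or more. The KO cells were CRISPR-Cas9 clones with a premature stop in Ddx6, one clone by an inserted nucleotide and the other by a large deletion. Clone 1 gave KO gradient 1 and clone 2 gave KO gradients 2 and 3, so that 3 gradients per genotype and 3 fractions made 18 libraries. The labels do not say that gradients of one genotype were separate cultures, so the p-values measure the spread between these gradients, which may be technical.

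Library totals ranged from 2543617 to 11474550 counts, and the 3 WT monosome libraries were the shallowest. Ddx6 mRNA was at 143 to 212 CPM (the count as a share of its library, scaled by TMM) in WT libraries, at 55.3 to 82.7 CPM in clone 1 and at 9.68 to 26.7 CPM in clone 2, so that all 9 KO libraries were below every WT library. These reads measure the abundance of the mRNA and not the edit itself. The summed level of 8 ESC markers was 2303 to 5537 CPM in WT and 2432 to 4113 CPM in KO libraries. In the monosome 2 of the 8 were lower in KO (Tfcp2l1 by -0.94 and Sox2 by -0.63 on the log2 scale) and Klf4 was higher (0.42). Over all genes 20.1% were lower there and 18.6% higher. In the low polysome Nanog (0.61), Klf4 (0.39) and Esrrb (0.36) were higher and 0 lower, beside 23.4% higher and 24.3% lower over all genes. In the high polysome Dppa5a (-1.32), Sox2 (-0.42) and Tfcp2l1 (-0.39) were lower and Klf4 (0.41) higher. The shares of all genes there were 21.1% lower and 25.3% higher. All these calls are by limma at an adjusted p under 0.05. Primitive endoderm markers summed to at most 8.46 CPM, of which Gata4 (up to 3.59 CPM) was the most abundant, and fibroblast markers to at most 6.12 CPM, with Col3a1 at 0 in every library. Of the primed epiblast markers, Fgf5 was at 0 throughout, while the sum of the 3 was 35.8 to 80.3 CPM in WT and 11.7 to 26.2 CPM in KO libraries. The part of these marker differences in the CCT results was not tested.

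The 7 subunits with an annotated coding sequence differed little in its length, from 1605 nt for Cct2 to 1668 nt for Tcp1. Cct6a has no coding sequence in the annotation used (Gencode M21, GRCm38), where it is a processed transcript. The bases around the start codon are shown because they are where ribosomes begin on these mRNAs. Each run covers 10 bases before the start codon and 20 from its first base on, 5′ to 3′, read from the annotated transcripts, with the start codon in capitals.

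Tcp1: tttcctgaagATGgagggtcctttgtccgt
Cct2: cgtcggaaccATGgcttccctttccctcgc
Cct3: tcgtgccgccATGatgggccaccgtccagt
Cct4: caaggtcgccATGccggagaacgtagcttc
Cct5: ttcgtccaccATGgcgtccgtggggaccct
Cct7: cgcttccaagATGatgcccacaccagttat
Cct8: cggccgagccATGgcgcttcacgtccccaa

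On GRCm38 these start codons lie at chr17:12916566-12916568 (plus strand) for Tcp1, chr10:117063706-117063708 (minus) for Cct2, chr3:88297236-88297238 (plus) for Cct3 and chr11:22990754-22990756 (plus) for Cct4. Those of Cct5, Cct7 and Cct8 lie at chr15:31601703-31601705 (minus), chr6:85452122-85452124 (plus) and chr16:87495786-87495788 (minus). Counted from the first base of the start codon as +1, a purine at position -3 was present in 7 of 7 runs, against 86% of 11397 tested genes with such a run. G at +4 was present in 4 of 7 (Tcp1, Cct2, Cct5 and Cct8), against 53.3% of those genes. The annotated 5′ UTRs ran from 85 nt (Cct8) to 608 nt (Cct7), beside a median of 169 nt over 11741 tested genes. The 3′ UTRs ran from 128 nt (Cct5) to 662 nt (Cct8), all shorter than the median of 934 nt. The genes lie on 8 different chromosomes, so none of them are neighbours.

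The 8 mRNAs were not counted in equal amounts. QuantSeq primes at the poly(A) tail and yields reads near it, so a long mRNA is not counted more often than a short one. Levels are set side by side across subunits in CPM on that ground. Reads lost to unique alignment may differ by gene, with 5 pseudogenes listed for Cct7 and 0 for Cct2, and this loss was not measured. The order below is thus one of counts. Cct7 was the most abundant in all 6 groups, from 671 CPM (mean over the 3 gradients) in the WT low polysome to 2417 CPM in the KO high polysome. Cct6a was next in 5 groups, and the lowest was Tcp1 or Cct5. In the WT monosome the order by mean was Cct7, Cct2, Cct6a, Cct4, Tcp1, Cct3, Cct8, Cct5, and the values of Cct6a and Cct4 overlapped, as did those of the neighbours Tcp1 and Cct3, Cct3 and Cct8, and Cct8 and Cct5. The order in the WT high polysome was Cct7, Cct6a, Cct8, Cct2, Cct3, Cct4, Cct5, Tcp1, in which only Cct2 and Cct3 overlapped. The highest mean was 3.71 times the lowest in the WT monosome and 7.02 times in the WT high polysome. In the KO the monosome fold was 5.36, and in the KO high polysome the means ran from 202 CPM for Tcp1 to 2417 CPM for Cct7.

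Cct7 mRNA made up 24.0% ± 1.57 (SD, n = 3) of the summed CCT level in the WT monosome and 33.2% ± 2.93 in the KO monosome. In the high polysome its share was 31.7% ± 2.89 in WT and 41.5% ± 2.52 in KO, with no overlap between genotypes in either fraction. Cct2 went the other way in the monosome, with 18.8% ± 1.64 in WT and 12.5% ± 0.321 in KO. The share of Cct3 in the monosome was 8.53% ± 0.876 in WT and 9.40% ± 0.473 in KO, and these values overlapped.

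Summed over the 8 subunits, the WT gradients held 3220.4, 3085 and 3043 CPM in the monosome and the KO gradients 2087, 2043 and 2126 CPM. The KO sums were thus below every WT sum in this fraction. In the low polysome the sums were 2124, 2044 and 2147 CPM in WT and 2092, 2798 and 2577 CPM in KO, which overlapped. High polysome sums were 5201, 5036 and 5069 CPM in WT and 5279, 5781 and 6357 CPM in KO, all 3 KO values above the WT values. The mean sum was 5102 CPM in WT and 5806 CPM in KO, and the mean of Cct7 alone was 1617 and 2417 CPM. Among single subunits only Cct7 had all its KO values above WT there, and Cct6a had all below, so the higher sum does not describe all 8. Since the RNA of all cells in a lysate is pooled, fewer cells carrying an mRNA and less of it per cell cannot be told apart here.

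**Figure D1:**
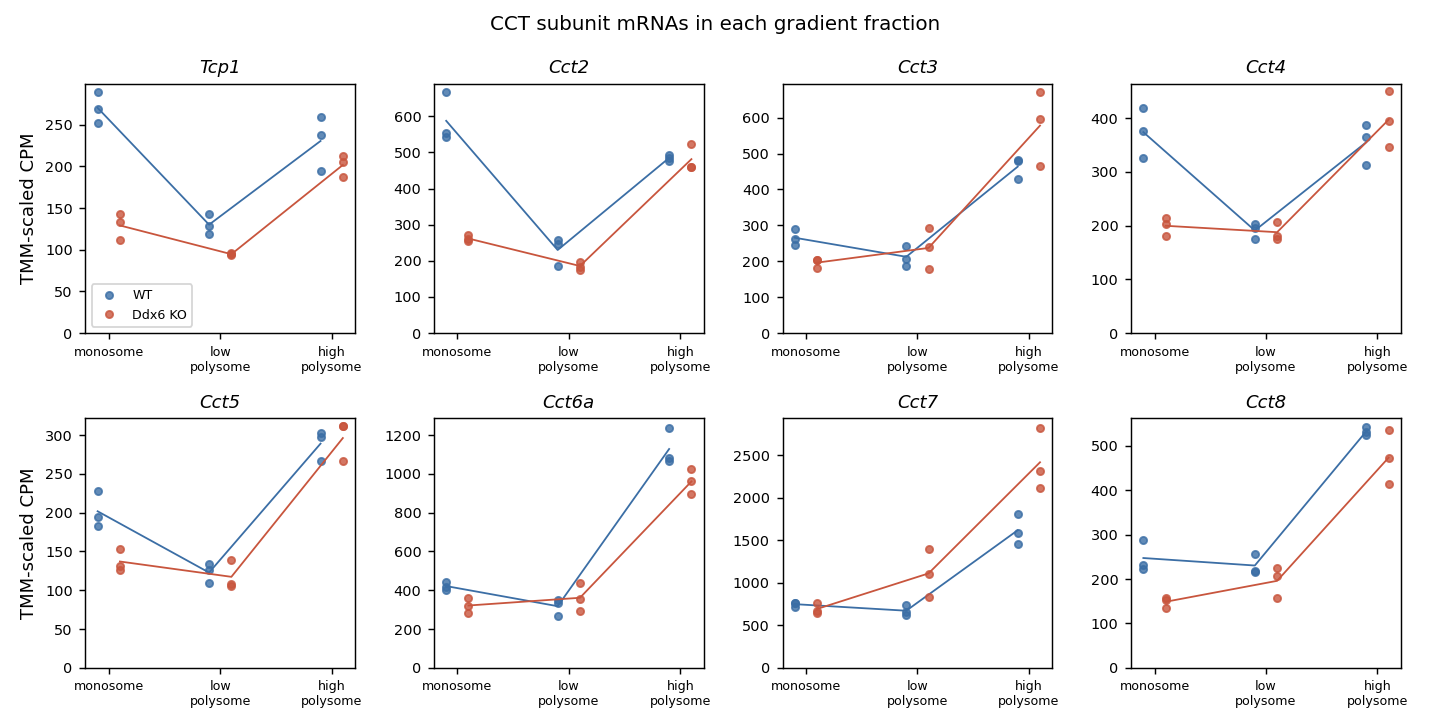
TMM-scaled CPM (vertical axis, starting at 0 with its own range in each panel) of the 8 CCT subunit mRNAs by fraction (from left to right monosome, low polysome, high polysome), for 3 WT (blue) and 3 Ddx6 KO (red) gradients; points are libraries and lines join group means. In the monosome the KO points lie below the WT points for every subunit except Cct7, and in the low and high polysome Cct7 is the subunit whose KO points all lie above. How many of all genes separate in this way was not counted.

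In WT cells the subunits differed in their ratio of high polysome to monosome. In log2(high polysome / low polysome) 8 of 8 lay above the median of all genes in each WT gradient. The median of the 8 averaged 1.18 over the gradients, beside -0.03 over all genes and 0.28 over other genes of like coding length. Means of single subunits ran from 0.82 for Tcp1 to 1.83 for Cct6a, with 0.89 for Cct4 and 1.09 for Cct2. The ratios below are against the monosome. Between high polysome and monosome, 5 of 8 were higher in the high polysome and 0 were lower, beside 28.9% higher and 32.2% lower over all genes tested (limma, adjusted p under 0.05). The 5 were Cct3, Cct5, Cct6a, Cct7 and Cct8. The median log2 difference of the 8 was 0.66, against -0.02 over all genes and 0.10 over 232 other protein-coding genes with a coding length in the same range. Of those 232 genes 33.2% were higher and 26.7% lower.

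Cct6a had the greatest WT translation level, the ratio of high polysome to monosome. Its monosome values were 444, 419 and 401 CPM and its high polysome values 1082, 1238 and 1065 CPM in WT gradients 1 to 3. The groups stood well apart, with a log2 difference of 1.42 ± 0.14 (SE; limma adjusted p = 2.84e-08). For Cct8 the monosome values were 231, 289 and 223 CPM and the high polysome values 542, 532 and 525 CPM. Cct8 differed by 1.12 ± 0.14 (adjusted p = 8.90e-07, limma) and Cct7 by 1.11 ± 0.15 (adjusted p = 3.26e-06). Cct7 rose from 716, 767 and 762 CPM to 1806, 1460.0 and 1586 CPM. Cct3 had 261, 245 and 290.3 CPM in the monosome and 482, 429.6 and 479 CPM in the high polysome, a difference of 0.80 ± 0.16 (adjusted p = 0.000202, limma). All of these are on the weakly ATP-binding side of the ring, a grouping applied after these values had been seen. For each of these subunits the high polysome values lay above the monosome values.

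On the strongly ATP-binding side only Cct5 passed the test, with 194, 228 and 183 CPM in the WT monosome, 303, 267 and 298 CPM in the high polysome and a difference of 0.52 ± 0.13 (limma adjusted p = 0.00206). Tcp1 had 289.5, 269 and 253 CPM in the monosome and 195, 237 and 259 CPM in the high polysome, which overlapped. Its log2 difference was -0.23 with a 95% interval of -0.49 to 0.03 (adjusted p = 0.110, limma). Cct2 had 666, 542 and 555 CPM against 477, 485 and 492 CPM, with every high polysome value below the monosome values. Its difference of -0.27 (interval -0.52 to -0.01) did not pass after adjustment (adjusted p = 0.0624, limma). Cct4 had 419, 326 and 377 CPM against 314, 388 and 364 CPM, a difference of -0.07 (interval -0.34 to 0.20). Without WT gradient 3 the Tcp1 difference was -0.37 and passed as lower (adjusted p = 0.0436, limma).

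The low polysome held less of several of these mRNAs than the monosome in WT. There 5 of 8 were lower (Tcp1, Cct2, Cct4, Cct5 and Cct6a) and 0 higher, beside 22.8% lower and 20.4% higher over all genes. The 232 genes of like coding length also leaned lower, with 30.6% lower and 9.91% higher and a median of -0.25, beside -0.57 for the 8 subunits. The greatest decrease was that of Cct2, whose low polysome values of 257, 246 and 186 CPM gave a log2 difference of -1.36 ± 0.12 (limma adjusted p = 3.80e-08). Tcp1 was lower by a similar measure, with 119, 128 and 143 CPM and a difference of -1.06 ± 0.13 (adjusted p = 1.48e-06, limma). The call of Cct6a (-0.42, limma adjusted p = 0.0220) was lost without WT gradient 1 (adjusted p = 0.0673), 2 (0.0611) or 3 (0.149), and with low-count genes left in (0.0866). Cct7 and Cct8 differed by -0.16 (interval -0.49 to 0.16) and -0.10 (interval -0.40 to 0.20).

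In KO cells the high polysome held more than the monosome of 8 of 8 subunits, which were called higher, beside 35.0% higher and 33.6% lower over all genes. The log2 differences ran from 0.65 ± 0.13 for Tcp1 (limma adjusted p = 0.000116) to 1.80 ± 0.15 for Cct7 (adjusted p = 2.95e-09). Their median was 1.33, against 0.03 over all genes and 0.31 over the 232 genes of like coding length, of which 40.9% were higher. These 8 calls held in all 14 alternative fits. For Cct7 the KO monosome values were 763, 645 and 667 CPM and the high polysome values 2113, 2314 and 2823 CPM.

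Taken gradient by gradient, log2(high polysome / monosome) of Tcp1 was -0.57, -0.18 and 0.04 in WT and 0.75, 0.52 and 0.67 in KO. Cct2 had -0.48, -0.16 and -0.17 in WT and 0.86, 1.01 and 0.76 in KO, and Cct4 had -0.42, 0.25 and -0.05 in WT and 0.93, 0.88 and 1.14 in KO. For these subunits the KO gradients all lay above the WT gradients. Cct5 gave 0.64, 0.23 and 0.70 in WT and 0.80, 1.29 and 1.24 in KO. Cct3 gave 0.88, 0.81 and 0.72 in WT and 1.19, 1.72 and 1.73 in KO. The separation between genotypes was again complete for both. Cct7 had 1.33, 0.93 and 1.06 in WT and 1.47, 1.84 and 2.08 in KO, and Cct8 had 1.23, 0.88 and 1.24 in WT and 1.60, 1.62 and 1.76 in KO. Cct6a was the exception, with 1.28, 1.56 and 1.41 in WT and 1.85, 1.59 and 1.31 in KO, which overlapped.

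The median of the 8 ratios was 0.76, 0.53 and 0.71 in WT gradients 1 to 3, and all 3 KO gradients exceeded these, with 1.06, 1.44 and 1.28. The subunits also lay closer together in KO in this ratio. Their standard deviation within a gradient was 0.84, 0.61 and 0.61 in WT and 0.42, 0.47 and 0.49 in KO, with no overlap. For low polysome over monosome its mean over the gradients was 0.49 in WT and 0.45 in KO. Whether sets of other genes also lay closer together in KO was not tested. In WT the order by mean was Cct6a, Cct8, Cct7, Cct3, Cct5, Cct4, Tcp1, Cct2, where the neighbours Cct8 and Cct7, Cct5 and Cct4, Cct4 and Tcp1, and Tcp1 and Cct2 overlapped. In KO it was Cct7, Cct8, Cct6a, Cct3, Cct5, Cct4, Cct2, Tcp1, and of these neighbours only Cct2 and Tcp1 did not overlap.

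**Figure D2:**
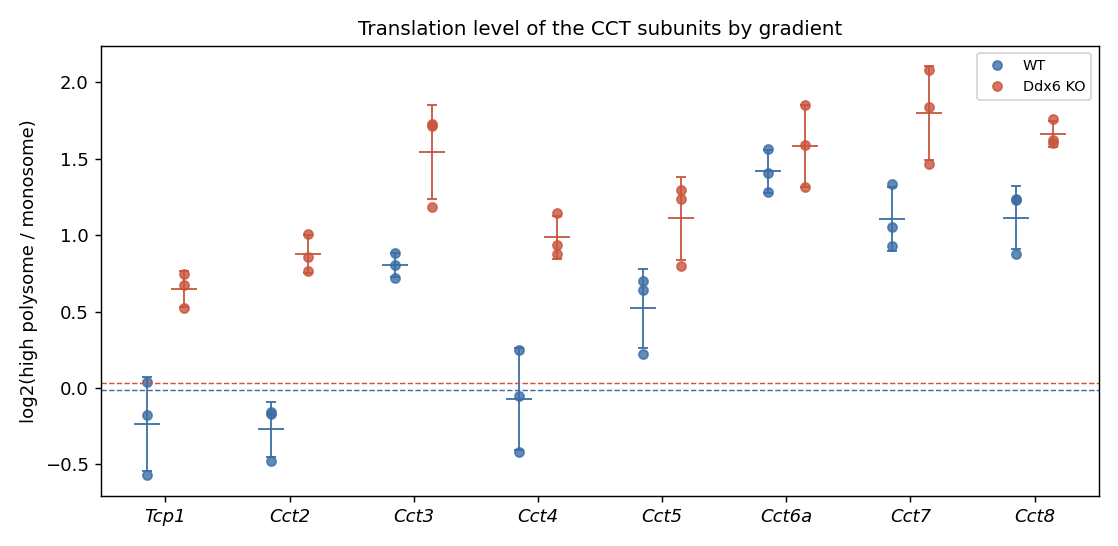
Log2(high polysome / monosome) of each CCT subunit (vertical axis, from TMM-scaled CPM with 0.5 CPM added) in 3 WT (blue) and 3 Ddx6 KO (red) gradients; points are gradients, the wide bar is the mean with its SD, and dashed lines are the medians over all genes tested. Every KO point lies above every WT point for 7 subunits, and Cct6a is the one where they overlap. The share of all genes with such a separation was not counted.

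The sides of the ring separated in this measure. In 6 of 6 gradients the 4 weakly ATP-binding subunits all had a greater ratio than the 4 strongly binding ones, though the gap between the nearest members was only 0.03 in WT gradient 3. The difference between the medians of the sides was 1.24 ± 0.43 (SD, n = 3) on the log2 scale in WT and 0.74 ± 0.04 in KO. For low polysome over monosome it was 0.83 ± 0.13 in WT and 0.74 ± 0.28 in KO. There the sides were separated in only 2 of 3 WT and 1 of 3 KO gradients. For high over low polysome it was 0.29 ± 0.32 in WT and 0.10 ± 0.19 in KO, and the sides were separated in 0 of 3 WT and 1 of 3 KO gradients. This grouping was applied after the values had been seen, so it is a description with no test.

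The study's measure of a translation change is the KO log2 ratio less the WT log2 ratio, tested as an interaction. For high polysome over monosome 6 of 8 subunits rose and 0 fell, beside 10.7% of all genes that rose and 7.09% that fell. The median of the 8 was 0.72, against 0.02 over all genes and 0.14 over the 232 genes of like coding length, of which 12.5% rose and 0.862% fell. Cct2 rose most, by 1.15 ± 0.17 (limma adjusted p = 0.000306). Cct4 rose by 1.06 ± 0.18 (adjusted p = 0.00104, limma) and Tcp1 by 0.88 ± 0.18 (adjusted p = 0.00277). These 3 calls held in all 14 alternative fits, with adjusted p of at most 0.00962 for Cct2, 0.0278 for Cct4 and 0.0421 for Tcp1.

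Cct3 (0.74 ± 0.23, limma adjusted p = 0.0286), Cct7 (0.69 ± 0.22, adjusted p = 0.0333) and Cct5 (0.59 ± 0.19, adjusted p = 0.0342) rose by smaller amounts and nearer the threshold. Cct3 and Cct7 passed in 8 of the 14 alternative fits and Cct5 in 7, each time with the same sign. The count of 6 fell to 3 when any one of WT gradients 1 and 2 and KO gradients 2 and 3 was left out, and to 4 without WT gradient 3. Calls over the whole table fell in the same fits, from 10.7% that rose to 3.67% to 6.82% in the first 4 and 8.11% in the last. Without KO gradient 1, which leaves clone 2 alone, 7 CCT subunits passed and 11.8% of all genes rose. Cct8 differed by 0.55 (interval 0.14 to 0.96; limma adjusted p = 0.0595) and passed in 3 of the 14 fits, over which its adjusted p ranged from 0.0317 to 0.246. One of the 3 was the fit with the gradient as a replicate block, in which Cct8 passed (adjusted p = 0.0328, limma) and 7 of 8 rose, with 12.2% of all genes. Cct6a differed by 0.17 (interval -0.25 to 0.58; limma adjusted p = 0.594) and passed in 0 of 14.

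Scaling makes every change relative to the rest of its library. With library size alone in place of TMM the median of all genes in this interaction moved from 0.02 to -0.10 and that of the CCT subunits to 0.59, so that the CCT median stood 0.69 above all genes under TMM and 0.70 above them with library size. With low-count genes left in, the median of all genes was 0.26 and the CCT median stood 0.35 above it. Of the genes called over the whole table, 60.1% had risen under TMM, 51.0% with DESeq2 size factors and 40.3% with library size. The count of CCT subunits that rose was 5 under either of those scalings, beside 9.11% of all genes with DESeq2 size factors and 7.37% with library size. No CCT subunit fell under any of the 14 alternatives.

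Fewer subunits passed when the low polysome took the place of the high. For low polysome over monosome 3 of 8 rose and 0 fell, beside 2.31% of all genes that rose and 2.39% that fell. They were Cct4 (0.88 ± 0.19, limma adjusted p = 0.0131), Cct2 (0.86 ± 0.17, adjusted p = 0.0107) and Cct7 (0.82 ± 0.22, adjusted p = 0.0378). The other 5 lay between 0.48 and 0.61, each with a 95% interval above 0 but an adjusted p from 0.0522 (Tcp1) to 0.174 (Cct8) in limma. With the gradient as a replicate block Tcp1 passed too (adjusted p = 0.0431, limma), which made 4, beside 3.02% of all genes. Over the 14 alternatives its adjusted p ranged from 0.0191 to 0.243. Without WT gradient 1 or KO gradient 3 the count was 0. It was 2 when WT gradient 2 or 3 or KO gradient 2 was left out, beside 0.386%, 1.32% and 1.01% of all genes, in that order. Without KO gradient 1 it was 4, beside 3.79%. Few genes of any kind rose in the fits that gave 0, namely 37 of 12705 without WT gradient 1 and 21 without KO gradient 3. Of all genes called, 49.2% had risen under TMM and 31.7% with library size alone.

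Within the polysomes no subunit passed. For high over low polysome 0 of 8 rose and 0 fell in limma, beside 3.39% and 1.03% of all genes, and 0 passed in edgeR and DESeq2 as well. At an unadjusted p under 0.05, 1 subunit was found, Cct6a, with -0.41 (interval -0.82 to 0.00; adjusted p = 0.234, limma). Tcp1, Cct2, Cct3 and Cct4 had values of 0.27, 0.28, 0.17 and 0.18, all with intervals that included 0.

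**Figure D3:**
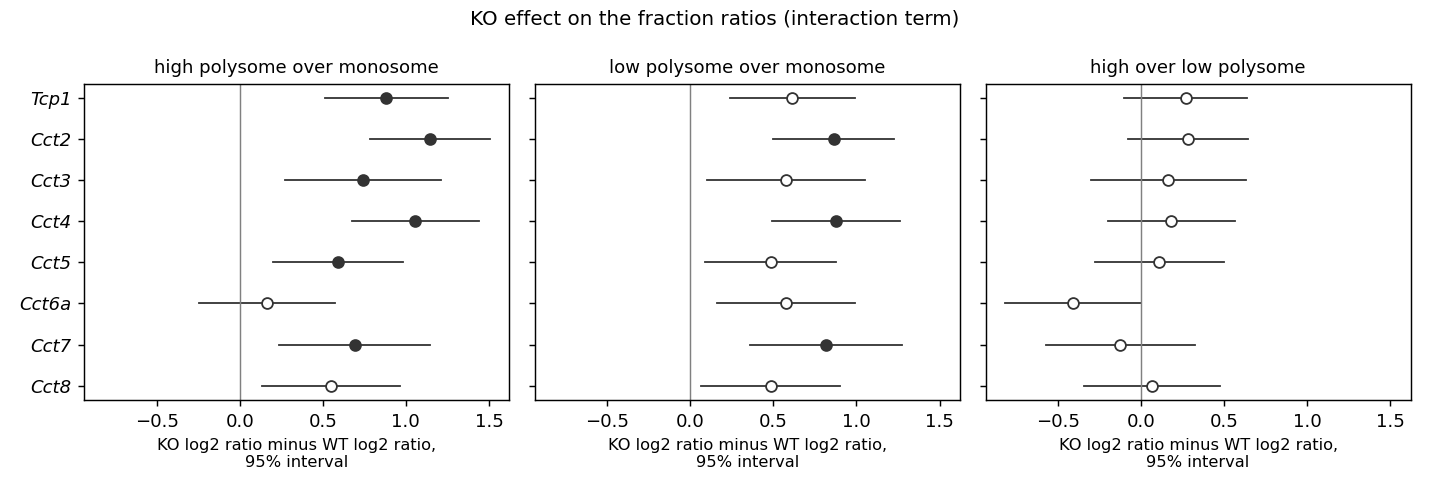
Change of each fraction ratio in Ddx6 KO, as KO log2 ratio minus WT log2 ratio (horizontal axis), with 95% intervals from limma; filled points passed an adjusted p of 0.05. The 6 filled points for high polysome over monosome lie between 0.59 and 1.15, the 3 for low polysome over monosome between 0.82 and 0.88, and none is filled for high over low polysome.

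KO was also compared with WT within each fraction. Each value is relative to the rest of its own library and total RNA was not measured, so the place of a change along the gradient was not tested. In the monosome 7 of 8 subunits were lower in KO and 0 higher, beside 20.1% lower and 18.6% higher over all genes. Cct7 was the one that did not pass. The median log2 difference was -0.64, against -0.03 over all genes and 0.00 over the 232 genes of like coding length, of which 16.4% were lower.

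Cct2 had 666, 542 and 555 CPM in the WT monosome and 254, 259.6 and 271 CPM in the KO monosome. The KO values were far below the WT values, by a log2 difference of -1.16 ± 0.12 (limma adjusted p = 4.64e-07). Tcp1 had 289.5, 269 and 253 CPM in WT and 111, 143 and 133 CPM in KO. Its difference was -1.07 ± 0.13 (adjusted p = 1.85e-06, limma), with no overlap. Cct4 had 419, 326 and 377 CPM in WT and 181, 215 and 204 CPM in KO, a difference of -0.90 ± 0.13 (adjusted p = 2.04e-05, limma). Cct8 had 231, 289 and 223 CPM against 136, 153 and 158 CPM (-0.73 ± 0.14, limma adjusted p = 0.000465), and Cct5 had 194, 228 and 183 CPM against 153, 127 and 132 CPM (-0.56 ± 0.14, adjusted p = 0.00264). All 5 kept these calls in the 14 alternative fits.

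Cct3 and Cct6a fell less. Cct3 had 261, 245 and 290.3 CPM in WT and 205, 182 and 202 CPM in KO (-0.44 ± 0.16, limma adjusted p = 0.0387), and Cct6a had 444, 419 and 401 CPM against 285, 319.7 and 359 CPM (-0.40 ± 0.14, adjusted p = 0.0321). In both the KO values were below the WT values, but the calls were lost with library sizes unscaled by TMM, with low-count genes left in, and without several single gradients. For Cct3 these were every gradient except KO 1, with adjusted p from 0.0577 to 0.138 in limma. For Cct6a they were WT 1, WT 2, KO 1 and KO 2, with adjusted p from 0.0547 to 0.134. Cct7 had 716, 767 and 762 CPM in WT and 763, 645 and 667 CPM in KO, which overlapped, with a difference of -0.12 (interval -0.44 to 0.21).

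The WT monosome libraries held 2543617 to 4894677 counts and the KO monosome libraries 7537656 to 7811071. The smallest count of any subunit in any library was 487. The part of depth in the monosome differences was not tested.

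In the low polysome 1 subunit was higher in KO (Cct7) and 1 lower (Tcp1), beside 23.4% higher and 24.3% lower over all genes. Cct7 had 653, 617 and 743 CPM in WT and 831, 1395 and 1103 CPM in KO. The KO values were all above the WT values, with a log2 difference of 0.70 ± 0.15 (limma adjusted p = 0.000928). Tcp1 had 119, 128 and 143 CPM against 93.2, 94.8 and 95.9 CPM, a difference of -0.45 ± 0.13 (adjusted p = 0.00599, limma). Cct2 had 257, 246 and 186 CPM in WT and 198, 175 and 183 CPM in KO, and its -0.30 (interval -0.55 to -0.04) missed the threshold (adjusted p = 0.0544, limma). The remaining 5 lay between -0.25 and 0.18.

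In the high polysome 1 of 8 was higher in KO and 0 were lower, beside 25.3% higher and 21.1% lower over all genes. It was Cct7, with 1806, 1460.0 and 1586 CPM in WT and 2113, 2314 and 2823 CPM in KO (0.57 ± 0.15, limma adjusted p = 0.00414). The call was lost without KO gradient 3 (0.43, adjusted p = 0.0524, limma). Cct3 had 482, 429.6 and 479 CPM in WT and 467, 597 and 670.4 CPM in KO, a difference of 0.30 (interval -0.02 to 0.63), and it passed without KO gradient 1 (0.45, adjusted p = 0.0107, limma). Tcp1 differed by -0.19 (interval -0.44 to 0.07), and passed as lower without WT gradient 1 (-0.37, adjusted p = 0.0334, limma). Cct6a had 1082, 1238 and 1065 CPM in WT and 1027, 962 and 894 CPM in KO. Its KO values were all below the WT values, but the difference of -0.23 (interval -0.52 to 0.05) did not pass. Cct2, with 477, 485 and 492 CPM against 460.1, 523 and 461 CPM, differed by -0.01 (interval -0.27 to 0.24). The 7 subunits that were lower in the KO monosome thus lay between -0.23 and 0.30 in the high polysome.

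**Figure D4:**
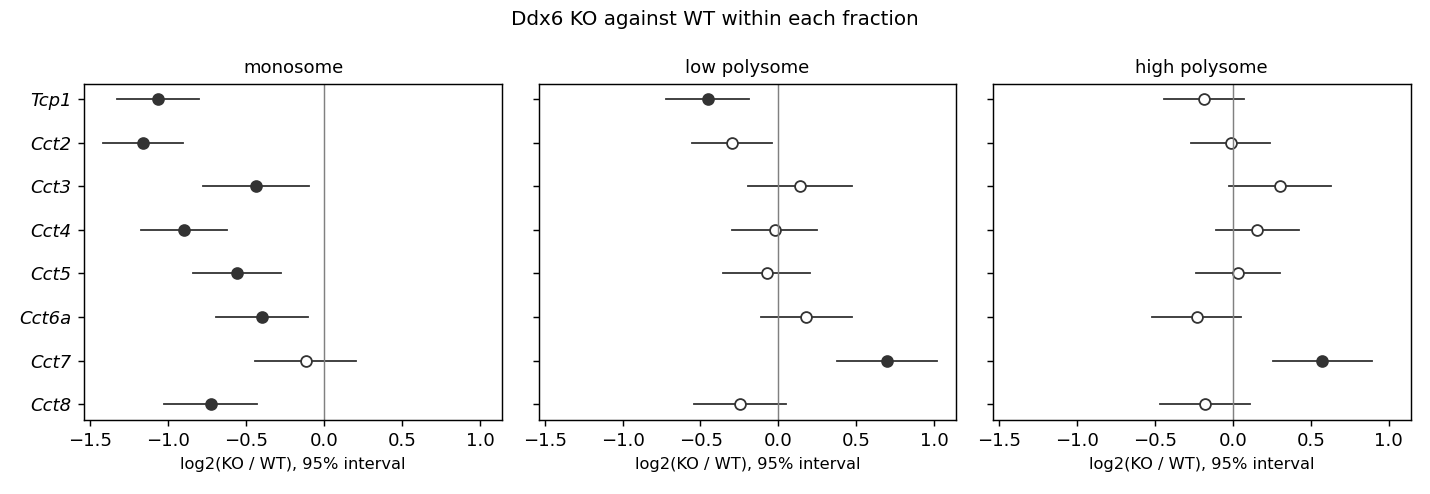
Log2(KO / WT) of the 8 CCT subunits (horizontal axis) in each of the 3 fractions, with 95% intervals from limma; filled points passed an adjusted p of 0.05. In the monosome 7 filled points lie below 0, while in the high polysome only Cct7 is filled, at 0.57.

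The clones could be compared by value only, since clone 1 gave 1 gradient. For Cct3 the KO translation level was 1.19 in clone 1 and 1.72 and 1.73 in clone 2, and for Cct5 it was 0.80 in clone 1 and 1.29 and 1.24 in clone 2. Cct7 gave 1.47 in clone 1 and 1.84 and 2.08 in clone 2. For Tcp1, Cct2 and Cct4 the clone 1 value lay within or next to the clone 2 values, at 0.75 beside 0.52 and 0.67 for Tcp1. Cct6a was reversed, with 1.85 in clone 1 and 1.59 and 1.31 in clone 2. Clone and gradient cannot be told apart in these values.

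Across the 18 libraries the subunits moved together to a different extent. The Pearson r of log2 CPM over the 28 pairs had a median of 0.81, with the greatest value for Tcp1 and Cct2 (0.95) and the least for Tcp1 and Cct7 (0.30). Each subunit was also set against the mean of the other 7, where Cct5 had the greatest r (0.96) and Tcp1 the least (0.73). These values describe 18 libraries that share fractions and gradients and are not a test.

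The 5 genes outside the complex whose log2 CPM followed the mean of the subunits most closely, among 9021 genes with a mean of at least 10 CPM, were Umps (r = 0.98), Ddx19a (0.98), Tars (0.98), Eif3g (0.98) and Csnk2a2 (0.98). Umps makes UMP for pyrimidine synthesis, Ddx19a is a helicase of mRNA export, Tars charges the threonine tRNA, Eif3g is a subunit of the initiation factor eIF3, and Csnk2a2 is a catalytic subunit of casein kinase 2. Their changes in the interaction for high polysome over monosome were 0.98 for Tars, 0.65 for Ddx19a, 0.54 for Umps, 0.45 for Eif3g and 0.30 for Csnk2a2. These genes were chosen for following the subunits over the same libraries, so the values are a description and no test is given.

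Prefoldin, the jellyfish-shaped complex that hands nascent actin and tubulin to CCT, has 6 subunits. In the interaction for high polysome over monosome 0 of 6 rose and 3 fell, with a median of -0.73, beside 10.7% that rose, 7.09% that fell and a median of 0.02 over all genes. They were Pfdn4 (-1.51 ± 0.21, limma adjusted p = 0.000205), Vbp1 (-0.74 ± 0.25, adjusted p = 0.0412) and Pfdn6 (-0.72 ± 0.19, adjusted p = 0.0149). Of the 3 phosducin-like cofactors, proteins that bind CCT together with its substrates, Pdcl3 fell (-1.56 ± 0.42, adjusted p = 0.0161, limma) and 0 rose. The coding sequences of the prefoldin subunits are 366 to 588 nt long, well under those of the CCT subunits. Prefoldin was not set beside other genes of its own coding length, and the part of length in its changes was not tested.

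Among the main clients, 4 of 11 tested actin and tubulin genes rose and 0 fell, with a median of 0.57, beside the same 10.7% and 7.09% of all genes. The largest changes were those of Tubb5 (1.94 ± 0.28, limma adjusted p = 0.000245), the beta-tubulin with the highest level here, Tubb2b (1.60 ± 0.24, adjusted p = 0.000266) and Tuba1b (1.32 ± 0.23, adjusted p = 0.00106), an alpha-tubulin. In the monosome Tubb5 differed between KO and WT by -1.49 and in the high polysome by 0.45, of which only the first passed (adjusted p = 8.22e-06 and 0.0684, limma). Actb differed by -0.01 ± 0.25 in the interaction. Actg1 was counted at no more than 1.23 CPM in any library and was not tested. Only unique alignments were counted, so this value cannot be read as absence of the mRNA.

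Of the 7 clients with a beta-propeller fold, Mlst8, a subunit of the mTOR complexes, rose by 0.86 ± 0.27 (limma adjusted p = 0.0359), and 0 fell, so that 1 of 7 rose beside 10.7% of all genes. The tubulin folding cofactors act on tubulin after its release from CCT, and of the 5, 1 rose and 1 fell, beside 10.7% and 7.09% of all genes. These were Tbcd (1.18 ± 0.34, adjusted p = 0.0216, limma) and Tbca (-0.58 ± 0.16, adjusted p = 0.0193). The mitochondrial chaperonin is a separate machine built of Hspd1 and its lid Hspe1. Hspd1 rose by 1.30 ± 0.25 (limma adjusted p = 0.00203), while Hspe1 gave -0.48 ± 0.29 (adjusted p = 0.250). Of 3 tested chaperonin-like paralogs, Mkks, a gene of Bardet-Biedl syndrome, fell (-0.89 ± 0.20, adjusted p = 0.00467, limma), and 0 rose, beside 7.09% of all genes that fell.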

How the data were processed

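Polysome fractions of WT and Ddx6 KO ESCs were sequenced as QuantSeq 3′ FWD libraries. Per the submitters' processing notes and the file headers, reads were trimmed with cutadapt 1.14, aligned to mm10 with STAR 2.5.3a keeping unique alignments, and counted per gene with featureCounts 1.5.3 by strand. The deposited values are raw counts per gene, which were made by the authors from the Gencode M14 basic annotation with 92 ERCC spike-in sequences. The spike-in sequences (28 to 169 counts per library) were left out. Unique alignment loses reads shared with near-identical copies. RefSeq lists 16 CCT pseudogenes, and the 9 in the table had at most 3 counts in a library. Shared reads are dropped at both copies, so these counts do not measure what the subunits lost. No gene overlapping a subunit on the same strand had more than 30 counts. With no molecular identifiers named, PCR copies may be among the counts.

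Symbols, coordinates, coding lengths, UTRs and transcript sequences came from Gencode M21 (GRCm38), which matched 51274 identifiers. Genes with at least 3 CPM in at least 3 libraries were kept (12705, holding 99.6% of counts). In R 4.3.3, TMM factors from edgeR 4.0.16 scaled the counts, and a voom model of 6 group means was fitted by limma 3.58.1, with two-sided tests and Benjamini-Hochberg adjustment over all genes tested at 0.05. The study's methods name limma and the interaction. Ratios per gradient used CPM (counts per 1000000) plus 0.5. The fit was tested on simulated data. Named were the 8 subunits, Ddx6, called members of the partner lists (at most 3 per list and direction) and the 5 genes most like the subunits. The members and lists were chosen with earlier results of these data known. Alternatives were DESeq2 size factors, library size, edgeR quasi-likelihood, DESeq2 1.42.0, no filter, the contrast's groups only, 2 replicate blocks and 6 fits without 1 gradient. The closest replicate pair differed by 3.53 times sampling noise (chi-square over degrees of freedom), so none was counted once.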

Additional observations from a re-analysis of the deposited data

Results flagged for a closer look

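The ratio of high polysome to monosome differed between WT and KO by the interaction term for 6 CCT subunits: by 0.88 for Tcp1, 1.15 for Cct2, 0.74 for Cct3, 1.06 for Cct4, 0.59 for Cct5 and 0.69 for Cct7 (log2 scale, limma adjusted p from 0.000306 to 0.0342). The ratio of low polysome to monosome differed likewise for 3 of them, by 0.86 for Cct2, 0.88 for Cct4 and 0.82 for Cct7 (adjusted p from 0.0107 to 0.0378, limma). Every one of these differences was positive. Groups of 3 gradients are too small for the check of single samples far from the others.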

How the results depend on the processing

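Of 1008 values of single CCT subunits in alternative fits, 943 kept their side of the threshold, 49 lost a call, 16 gained one and 0 called values reversed. Of the 943, 17 changed sign, none of them past the threshold in either fit, such as Cct4 between WT high polysome and monosome, which moved from -0.07 to 0.16 without WT gradient 1. With no filter on low counts 27427 genes were tested, and 3 of the CCT subunits rose in the interaction for high polysome over monosome instead of 6. Of all genes 3.57% rose in that fit, beside 10.7% in the main fit. In the low polysome 2 CCT subunits in place of 1 were lower in KO with DESeq2 size factors, the DESeq2 Wald test or the replicate number as a block, Cct2 being added (adjusted p = 0.0295 to 0.0488). Over fits without 1 gradient 0 to 1 CCT subunits were lower for WT high polysome over monosome, beside 27.4% to 32.8% of all genes. In the interaction 3 to 7 rose for high polysome (3.67% to 11.8% of all genes) and 0 to 4 for low polysome (0.165% to 3.79%). In KO against WT 1 to 2 were lower in the low polysome (19.6% to 22.7%). In the high polysome 0 to 2 were higher (20.1% to 24.7%) and 0 to 1 lower (16.3% to 22.4%).

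With the gradient as a replicate block the interaction count of CCT subunits was 7 for high polysome over monosome and 4 for low polysome over monosome, Cct8 (0.55, adjusted p = 0.0328) and Tcp1 (0.61, adjusted p = 0.0431) being added. Deviations from group means correlated above 0.1 in 7 of 18 pairs of fractions with the same number (median 0.09), in 5 of 36 pairs from other gradients of the genotype (median -0.05), and in 3 of 9 pairs with the same number across genotypes. Per the protocol the 3 fractions of a lysate come from 1 gradient, and ratios per gradient were formed that way, while the fit across genes had the block as an alternative.

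Limits: 3 gradients per genotype, 1 of them for clone 1, shallower WT monosome libraries, and no measure of total RNA or protein.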
